A study of Mus musculus with 35 samples.

Results

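The 26 genes described here encode the pathway that makes cholesterol from acetyl-CoA and the proteins that control it through the transcription factor SREBP2 (gene Srebf2). They were chosen as a list of named genes, and all 26 were found among the 54119 genes with a matched transcript. The RNA came from cells of male C57BL/6JRj mice that had been sorted with magnetic beads against ACSA2, an antigen of the astrocyte surface. The mice were 8 to 9 weeks old when their feeding on chow (SC) or on HFHS, a diet rich in fat and sugar (58%), began, and they stayed on it for 4 months. Each replicate combined the tissue of 2 mice. The SC groups held 6 hypothalamus, 5 hippocampus and 6 cortex replicates. The HFHS groups held 5 hypothalamus, 7 hippocampus and 6 cortex replicates, which makes 35 libraries in 6 groups. All groups share strain, sex, sorting antigen and cDNA kit. Cortex cells passed over LS columns with larger reagent volumes, and cells of the other regions over MS columns, so the column and the region cannot be told apart in any comparison with cortex. No label ties a replicate of one region to a replicate of another.

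Cholesterol synthesis begins with acetyl-CoA, which is turned into mevalonate and then into isoprenoid units. These units are joined to squalene, squalene is closed to the ring compound lanosterol, and a series of enzymes of the endoplasmic reticulum trims lanosterol to cholesterol. When the sterol content of the membrane is low, Scap carries SREBP2 from the endoplasmic reticulum to the Golgi, where it is cut and released to the nucleus. The Insig proteins hold Scap back when sterols are plentiful. Brain cholesterol is made within the brain, by oligodendrocytes for myelin and by astrocytes, which also pass it to neurons in lipoproteins.

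SREBP2 binds sterol regulatory elements and acts with the factors NF-Y, which binds the CCAAT box, and Sp1, which binds the GC box. Promoters are shown because most of the genes below moved together between regions. The RefSeq promoter table for GRCm38.p6 held 22 of the 26 genes (not Fdps, Fdft1, Sqle and Stard4), and the 250 bases before each start were searched on both strands. A gene with several starts was counted once, where any of its promoters held the motif. CCAAT was found in 20 of 22 promoters, against 37.5% of the 27025 genes in the table. GGGCGG, the GC box, was found in 20 of 22, against 35.4%. Both motifs stood in 1 promoter in 17 of 22, against 12.5%. The sterol element core TCACNCCAC was found in Hmgcs1 alone (1.22% of all genes). The shorter form TCACCCCA, which overlaps that core in Hmgcs1, was found in Hmgcs1 and Srebf2 (1.54%). The E-box CACGTG was found in 5 (Hsd17b7, Sc5d, Dhcr7, Scap and Insig1), against 6.86%. These shares were not matched for base composition. Only these exact letters within 250 bases were searched, so a sterol element of other letters or farther away would be missed. The 200 bases before the start are printed for 4 genes, 5′ to 3′ on the strand of the gene, with these motifs in capitals. Hmgcs1 (chr13:119690151-119690350, plus strand) and Srebf2 (chr15:82147069-82147268, plus strand) stand for the mevalonate branch and its regulator. Msmo1 (chr8:64733579-64733778, minus strand) and Lbr (chr1:181842402-181842601, minus strand) stand for genes that differed in opposite directions between hippocampus and cortex on SC.
Hmgcs1: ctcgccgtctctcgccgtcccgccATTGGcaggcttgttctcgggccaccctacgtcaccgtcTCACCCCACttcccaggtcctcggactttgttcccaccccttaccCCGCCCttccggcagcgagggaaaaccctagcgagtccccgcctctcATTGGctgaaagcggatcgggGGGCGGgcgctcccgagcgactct
Srebf2: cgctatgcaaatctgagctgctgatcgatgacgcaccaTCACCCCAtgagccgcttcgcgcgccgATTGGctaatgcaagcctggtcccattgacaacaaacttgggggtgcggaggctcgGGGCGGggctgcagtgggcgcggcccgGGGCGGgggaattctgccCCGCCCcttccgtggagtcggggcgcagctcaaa
Msmo1: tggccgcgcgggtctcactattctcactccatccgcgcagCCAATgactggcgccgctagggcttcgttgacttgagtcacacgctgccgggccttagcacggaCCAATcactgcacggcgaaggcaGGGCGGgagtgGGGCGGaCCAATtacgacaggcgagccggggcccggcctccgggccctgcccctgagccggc
Lbr: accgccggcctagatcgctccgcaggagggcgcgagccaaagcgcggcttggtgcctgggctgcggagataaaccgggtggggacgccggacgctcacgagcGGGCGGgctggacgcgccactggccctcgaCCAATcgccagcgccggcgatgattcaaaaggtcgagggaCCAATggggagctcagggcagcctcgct
The CCAAT and GC boxes were thus present both in Msmo1 and in Lbr, and a match of letters is a description of the window, not of binding.

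The libraries held between 47578560 and 65982495 estimated reads. The sorted fractions held RNA of several cell types. CPM, the unit used below, is a gene's reads scaled to library size. The astrocyte score, a mean of log2 CPM over 18 marker genes, was 10.15 ± 0.29 (SD, n = 6) for cortex on SC. It was 8.11 ± 0.35 (n = 6) for hypothalamus and 7.71 ± 1.12 (n = 5) for hippocampus. The summed CPM of these markers ranged from 29100 to 52590 in cortex on SC, from 5521 to 9327 in hypothalamus and from 3182 to 18720 in hippocampus. Oligodendrocyte markers (15 genes) scored 8.82 ± 0.54, 9.75 ± 0.47 and 10.66 ± 0.51 in the same order, with summed CPM of 30230 to 87530, 88410 to 111700 and 70150 to 122800. Other cell types also differed between regions on SC. In hypothalamus, hippocampus and cortex, ependymal markers (9 genes) scored 7.51, 5.81 and 2.88, markers of oligodendrocyte precursors (8 genes) 5.87, 3.39 and 1.70, of choroid plexus (6 genes) 2.69, 6.54 and 3.13, and of neurons (10 genes) 3.89, 3.59 and 4.96. The part of these 4 cell types in the region differences below was not tested. No marker of these lists was at 0 in any group. In such bulk samples, fewer cells of a type and less RNA per cell cannot be told apart. The libraries cortex SC 6, cortex HFHS 6 and hypothalamus SC 6 had the shortest mean transcript length (1922, 2179 and 2483 bases, the others 2530 to 2986). Cortex SC 6 and cortex HFHS 6 also had the lowest factors of the library scaling (TMM; 0.60 and 0.69, the others 0.88 or more). A low factor raises the CPM of a library.

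All 26 genes passed the filter on low counts in every comparison. Per length of transcript (TPM), Msmo1, a methylsterol oxidase of the lanosterol branch, had the highest median over the 35 libraries (190.8 TPM). Fdps, which makes farnesyl diphosphate (162.5 TPM), Hmgcs1, which makes HMG-CoA (141.4 TPM), and Sc5d, a late desaturase (122.7 TPM), followed. Srebf2 had 76.1 TPM. Stard4, a sterol carrier, had the lowest level (2.84 TPM), next to Mylip, a ubiquitin ligase that removes lipoprotein receptors (4.26 TPM). Msmo1 ranked first in each of the 6 groups. The TPM of the 26 genes summed to a median of 2327 in cortex on SC (1468 to 2962), 1475 in hippocampus (1278 to 2101) and 1163 in hypothalamus (1047 to 1565). On HFHS the medians were 2181.8 (1805 to 2640), 1282 (1185 to 1907) and 1237 (1065 to 1736). On SC, the cortex range overlapped with those of hippocampus and hypothalamus through cortex SC 6 (1468.5 TPM) alone, and the other 5 cortex libraries had 2276.6 TPM or more, above every library of both. On HFHS, cortex overlapped with hippocampus and not with hypothalamus.

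**Figure D1:**
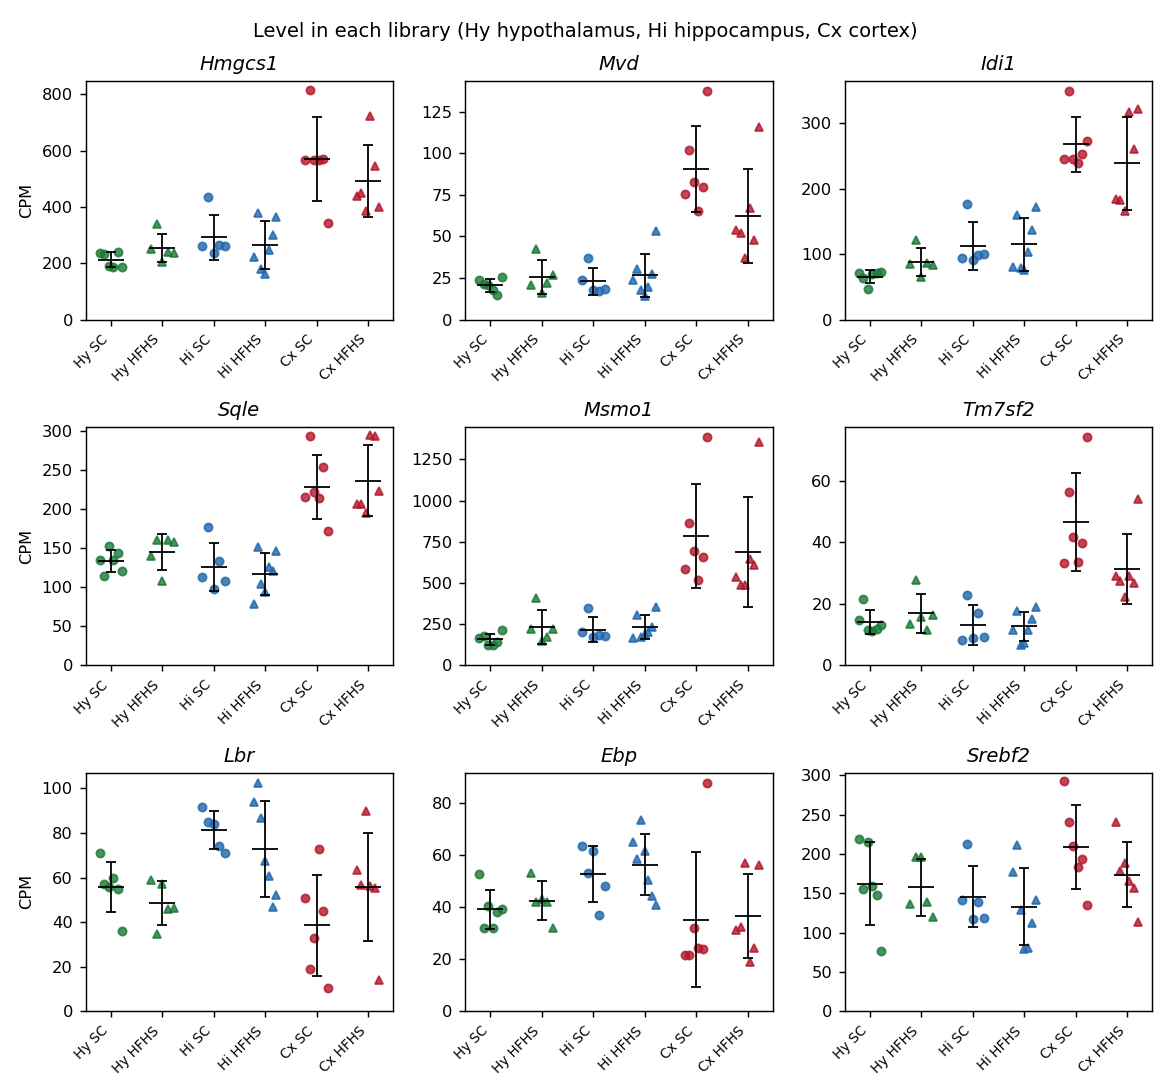
CPM of 9 genes in each library (points; circles SC, triangles HFHS) with the mean and SD of each group, for hypothalamus (Hy), hippocampus (Hi) and cortex (Cx). Msmo1 on both diets and Mvd on SC lie higher in cortex without overlap, whereas Mvd on HFHS and Lbr, Ebp and Srebf2 on both diets overlap between regions.

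The first question of the design is how the regions differ. On SC, cholesterol synthesis genes were lower in hypothalamus than in cortex throughout the pathway. In the edgeR quasi-likelihood test, 21 of the 26 genes were lower and 0 were higher at an adjusted p under 0.05, where 18.3% of the 21574 genes tested were lower and 17.7% were higher. The median log2 fold change of the 26 genes was -1.40, and that of all genes 0.07. In 19 of the 26 genes, every hypothalamus library lay below every cortex library in CPM. The share of all genes separated in this way was not computed, so this count has no background. By step, 5 of 5 mevalonate genes, 3 of 3 isoprenoid genes, 3 of 3 genes from squalene to lanosterol and 7 of 9 genes from lanosterol to cholesterol were lower.

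Of the mevalonate genes, Hmgcs1 had 186 to 239 CPM in hypothalamus on SC (median 212, n = 6) and 344 to 814 CPM in cortex (median 567, n = 6). The groups did not overlap in CPM, and the log2 fold change was -1.49 ± 0.22 (SE, adjusted p = 2.37e-06). In TPM, cortex SC 6 (52 TPM) lay below every hypothalamus library (85.9 TPM or more). Mvd, which decarboxylates mevalonate diphosphate to the first isoprenoid unit, had 14.6 to 25.4 CPM (median 21.2) and 65.1 to 137.4 CPM (median 81.2). Its log2 fold change was -2.18 ± 0.30 (adjusted p = 8.75e-07). Idi1, which isomerises that unit, had 45.9 to 72.7 CPM (median 70.4) and 238.6 to 349.2 CPM (median 249.6), with -2.08 ± 0.23 (adjusted p = 1.6e-08). Both genes were separated between the regions in every library in CPM. In TPM this held for Mvd, whereas Idi1 in cortex SC 6 (48.9 TPM) lay within the hypothalamus range (32.8 to 54 TPM). Acat2, the thiolase that opens the pathway, and the kinases Mvk and Pmvk were lower by 1.22, 1.28 and 1.89 on the log2 scale. The value of Pmvk became -1.22 without the 3 libraries of shortest transcripts, since cortex SC 6 had 368.6 CPM and the other cortex SC libraries 50.4 to 87.7 CPM.

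In the squalene and sterol steps, Fdft1, which makes squalene, had 75.2 to 95.0 CPM in hypothalamus (median 81.8) and 242.1 to 673.5 CPM in cortex (median 310.8). It was lower by 2.16 ± 0.27 on the log2 scale (adjusted p = 1.45e-07). Fdft1 shares exon sequence with Ctsb on the opposite strand, a cathepsin with a median of 62028 reads per library against 6477 for Fdft1, and the cDNA kit keeps no strand. Sqle, the squalene epoxidase that is a slow step of the pathway, differed less, with 114 to 153 CPM (median 135) against 173 to 294 CPM (median 219) and a log2 fold change of -0.83 ± 0.17 (adjusted p = 0.000277). Lss, which closes the ring, was lower by 0.80 ± 0.21 (adjusted p = 0.00291), with 32.3 to 56.1 CPM in hypothalamus and 48.5 to 101.6 CPM in cortex. The groups overlapped through cortex SC 6 alone, and the other 5 cortex libraries had 67.3 CPM or more. Msmo1 had the largest change of the 26, with 125.5 to 215 CPM (median 153.9) against 520 to 1384 CPM (median 676.5). Its log2 fold change was -2.36 ± 0.30 (adjusted p = 1.54e-07). For Msmo1, Fdft1 and Mvd, the highest cortex CPM belonged to cortex SC 6. In TPM that library was the lowest of its group (372.4, 105 and 43.7 TPM), still above every hypothalamus library. Cyp51, the lanosterol demethylase, Nsdhl, Hsd17b7 and Sc5d were lower by 1.73, 1.81, 1.47 and 1.58. Dhcr7, a terminal reductase, was lower by 1.10 ± 0.34 (adjusted p = 0.0108). Its groups, too, overlapped through cortex SC 6 alone (31.6 CPM), with 75.9 CPM or more in the other 5 cortex libraries and at most 67.6 CPM in hypothalamus.

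**Figure D2:**
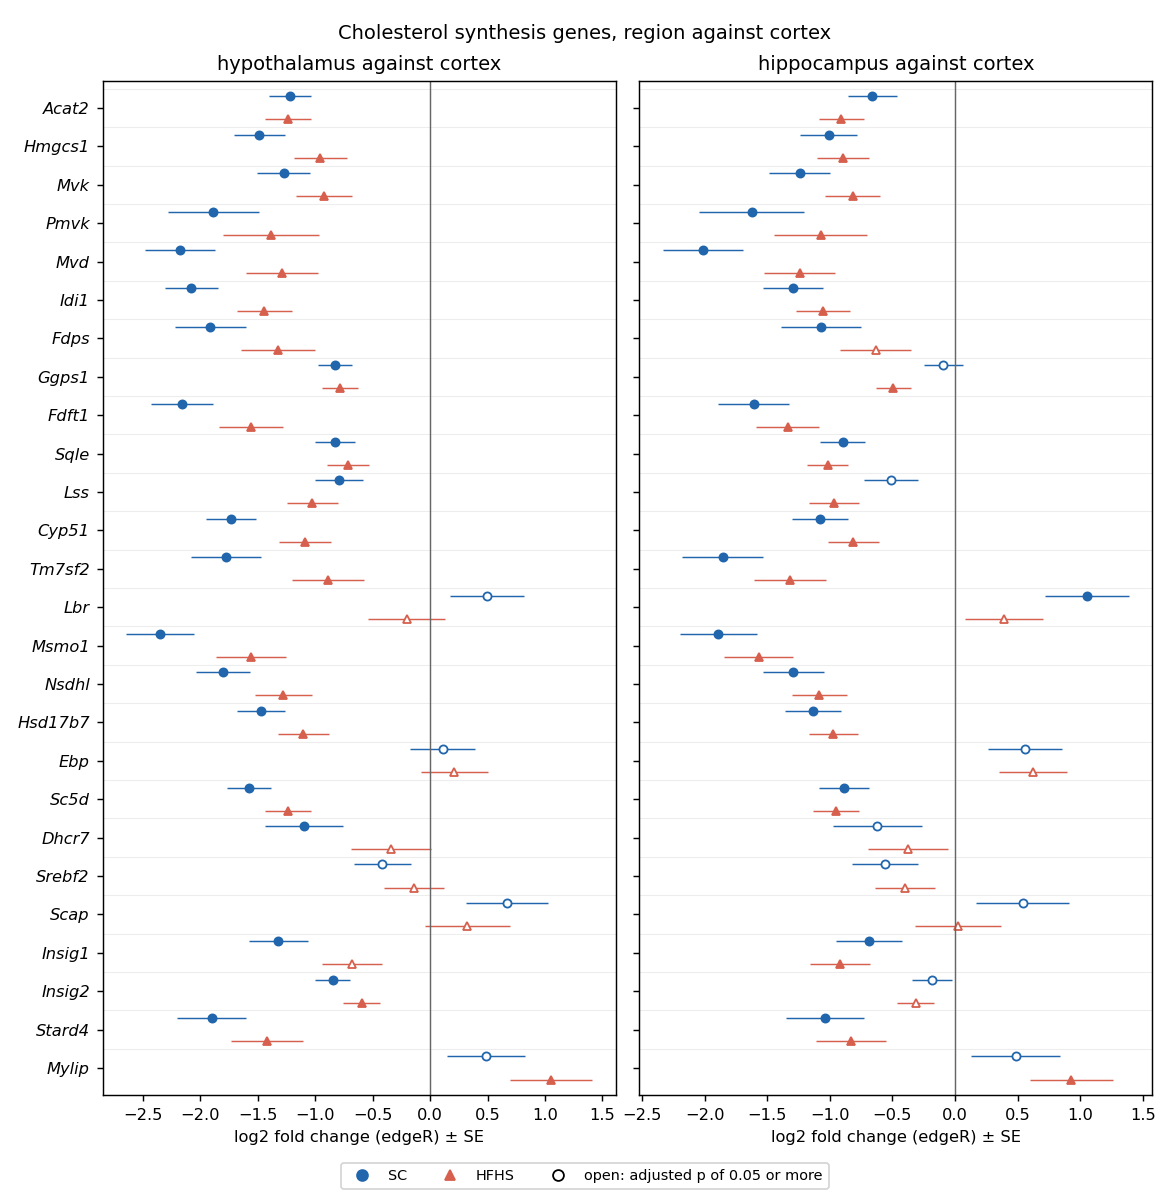
Log2 fold change with SE of each of the 26 genes, hypothalamus (left) and hippocampus (right) against cortex, on SC (blue circles) and on HFHS (red triangles). Filled symbols passed an adjusted p of 0.05, and most lie below 0, with Lbr, Ebp, Scap and Mylip as the genes with values above 0 on SC in both panels.

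Hippocampus was also lower than cortex on SC, in 17 of the 26 genes, and 1 gene (Lbr) was higher. Of all genes, 15.3% were lower and 15.4% higher. The median log2 fold change of the 26 genes was -0.95 (0.04 for all genes). In CPM, 13 of them were lower in every hippocampus library than in every cortex library. For this count, too, the share of all genes was not computed. The same cortex libraries serve as reference for hypothalamus and hippocampus, so the comparisons are not independent of each other. Mvd had 23.9, 37.1, 17.9, 17.4 and 18.5 CPM in the 5 hippocampus libraries, all below the 65.1 CPM of the lowest cortex library. Its log2 fold change was -2.01 ± 0.32 (adjusted p = 2.96e-05). Msmo1 had 201.9, 349.6, 169.6, 184.4 and 179.9 CPM, again below every cortex library, with -1.89 ± 0.31 (adjusted p = 4.2e-05). Pmvk was lower by 1.62 ± 0.42 (adjusted p = 0.00379) and by 0.80 without the 3 libraries of shortest transcripts.

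Hmgcs1 had 262.4, 435.1, 237.2, 263 and 261.8 CPM in hippocampus on SC. The second library lay above cortex SC 6 (343.8 CPM), a library of short transcripts, and below the other 5 cortex libraries (566 CPM or more), and the log2 fold change was -1.01 ± 0.23 (adjusted p = 0.00126). Sqle had 113.4, 177.1, 97.9, 133.6 and 108.7 CPM and a log2 fold change of -0.90 ± 0.18 (adjusted p = 0.000411), where the same library lay above cortex SC 6 (172.9 CPM) and below the other 5 cortex libraries (214.5 CPM or more). Sc5d was lower by 0.89 ± 0.20 (adjusted p = 0.00118) and Acat2 by 0.66 ± 0.19 (adjusted p = 0.00967). Insig1, a sterol sensor and itself a target of SREBP2, was lower by 0.69 ± 0.26 (adjusted p = 0.0449). This call was lost without any 1 of 9 libraries (hypothalamus HFHS 1, hippocampus SC 1, 3, 4 or 5, cortex SC 1, 2, 3 or 5), at adjusted p values of 0.0521 to 0.11 and log2 values of -0.73 to -0.60. The call of Fdps (-1.07 ± 0.32, adjusted p = 0.0107) was lost without cortex SC 6, where the value was -0.55 (adjusted p = 0.101) and which had 613.7 CPM against 143.3 to 207.9 CPM in the others of its group.

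Tm7sf2 and Lbr encode enzymes with the same sterol reductase activity, the step after Cyp51, and Lbr is also the receptor for lamin B at the inner nuclear membrane. They lay on opposite sides. Tm7sf2 had 8.17, 22.9, 9.04, 16.9 and 9.09 CPM in hippocampus on SC and 33.4 to 74.3 CPM in cortex (median 40.9), a log2 fold change of -1.86 ± 0.32 (adjusted p = 8.79e-05). Lbr had 91.8, 85.1, 84.3, 74.2 and 71 CPM in hippocampus and 10.6 to 73 CPM in cortex (median 38.8). It was higher by 1.05 ± 0.34 (adjusted p = 0.0172), and of the cortex libraries only SC 4 (73 CPM) lay above a hippocampus library, the lowest. Of the comparisons with cortex in the main fit, Lbr passed in this one alone. The call of Lbr was lost with the astrocyte or the oligodendrocyte score as a covariate, and that of Tm7sf2 with the astrocyte score. Ebp, the isomerase of a later step, had 63.8, 53.3, 61.7, 37.1 and 48.1 CPM in hippocampus and 21.6 to 87.9 CPM in cortex (median 24.1). The log2 difference of Ebp was 0.56 ± 0.30 (adjusted p = 0.15). Without cortex SC 6, which held the 87.9 CPM, the next cortex library had 32.2 CPM, below all 5 hippocampus libraries. Without the 3 libraries of shortest transcripts, Ebp passed as higher in both regions on SC. Exons of Tm7sf2 overlap Vps51 on the same strand, so its reads rest on how they were divided.

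On HFHS the pattern was measured again in other mice. Against cortex, 19 of the 26 genes were lower in hypothalamus (background 9.21%) and 1 was higher (background 14.6%), with a median of -0.99. All 19 were among the 21 that were lower on SC, and Dhcr7 and Insig1 were the others. In hippocampus, 18 were lower (background 10.8%) and 1 was higher (background 13.4%), with a median of -0.90. Of these 18, 16 were also lower on SC, while Ggps1 and Lss passed on HFHS alone and Fdps on SC alone. The test of that difference, the interaction of diet and region, gave adjusted p values of 0.559, 0.616 and 0.746 for Ggps1, Lss and Fdps in edgeR. The medians of all genes were 0.01 and 0.05. Hmgcs1 had 249.1, 341, 205, 239.4 and 235.2 CPM in hypothalamus and 385.5 to 724.5 CPM in cortex (median 444). The groups did not overlap in CPM. In TPM, cortex HFHS 6 (86.5 TPM) lay below every hypothalamus library (97.1 TPM or more). The log2 fold changes of Hmgcs1 were -0.96 ± 0.23 in hypothalamus (adjusted p = 0.00214) and -0.90 ± 0.21 in hippocampus (adjusted p = 0.00166). Msmo1 had 219.6, 409.9, 145.4, 172.7 and 218.8 CPM in hypothalamus, 166.5 to 352 CPM in hippocampus (median 205.3) and 487.2 to 1356 CPM in cortex (median 573.4). It was lower by 1.56 ± 0.31 and by 1.57 ± 0.27 (adjusted p = 0.000238 and 7.67e-05).

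Among the other genes with the largest and smallest changes on HFHS, Fdft1 was lower by 1.56 ± 0.28 in hypothalamus and by 1.34 ± 0.25 in hippocampus. Idi1 was lower in hypothalamus by 1.44 ± 0.24 (adjusted p = 2.37e-05), and Mvd in hippocampus by 1.24 ± 0.28 (adjusted p = 0.00136). Sqle was lower by 0.72 ± 0.18 and by 1.02 ± 0.16 (adjusted p = 0.0035 and 2.62e-05). Stard4 was lower by 1.42 ± 0.32 in hypothalamus (adjusted p = 0.000933). Ggps1, which makes geranylgeranyl diphosphate for protein anchoring, was lower by 0.79 ± 0.16 and by 0.49 ± 0.14 (adjusted p = 0.000317 and 0.0113). Ggps1 overlaps exons of Arid4b on the opposite strand (median 3882 reads against 3064). In hippocampus, Mvk and Cyp51 were lower by 0.82 ± 0.22 and 0.81 ± 0.20, and Tm7sf2 by 1.32 ± 0.29 (adjusted p = 0.0063, 0.00343 and 0.000904). Insig2, the second Insig protein, was lower in hypothalamus by 0.60 ± 0.16 (adjusted p = 0.00625), and Insig1 had -0.68 ± 0.26 there (adjusted p = 0.0578) and was lower in hippocampus by 0.92 ± 0.24 (adjusted p = 0.005).

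Mylip was the gene that was higher on HFHS, by 1.06 ± 0.36 in hypothalamus (adjusted p = 0.0281) and by 0.93 ± 0.33 in hippocampus (adjusted p = 0.0387). It had 11.7, 13.4, 16.7, 14.6 and 11.5 CPM in hypothalamus, 7.27 to 19.6 CPM in hippocampus (median 12.0) and 3.38 to 10.0 CPM in cortex (median 6.29). Hypothalamus lay above cortex in every library. The hypothalamus call was lost without any 1 of 4 libraries (hypothalamus HFHS 3, cortex HFHS 3, 5 or 6; 0.92 to 1.02, adjusted p 0.0508 to 0.0724). The hippocampus call was lost without any 1 of 7 (hippocampus HFHS 4, 5 or 6, cortex HFHS 3, 4, 5 or 6; 0.77 to 0.94, adjusted p 0.0593 to 0.101). The calls of Pmvk also rest on single libraries. Its value of -1.39 in hypothalamus became -0.70 (adjusted p = 0.142) without cortex HFHS 6, and its value of -1.07 in hippocampus lay between -1.06 and -0.39 without hippocampus HFHS 1, 3 or 4 or cortex HFHS 6. The same holds for Tm7sf2 in hypothalamus (-0.89; -0.88 to -0.67 without hypothalamus HFHS 1, 3, 4 or 5 or cortex HFHS 6) and for Stard4 in hippocampus (-0.83; -0.76 to -0.64 without hippocampus HFHS 3 or cortex HFHS 4 or 6).

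Hypothalamus and hippocampus differed less from each other. On SC, 4 of the 26 genes were lower in hypothalamus (background 4.13%) and 0 were higher (background 5.86%), with a median of -0.48. Ggps1 had 31.1 to 46.2 CPM in hypothalamus (median 35.7) and 49.5, 84.0, 64.9, 58.4 and 44.4 CPM in hippocampus, a log2 fold change of -0.73 ± 0.16 (adjusted p = 0.00269), and the groups overlapped. Insig2 was lower by 0.67 ± 0.16 (adjusted p = 0.00664), Sc5d by 0.69 ± 0.20 (adjusted p = 0.0209) and Idi1 by 0.79 ± 0.23 (adjusted p = 0.0269). The calls of Idi1 and Sc5d were lost without hippocampus SC 2 (adjusted p = 0.144 and 0.108). That of Idi1 was also lost without hypothalamus SC 3 (-0.70, adjusted p = 0.0698), and that of Sc5d without hippocampus SC 1 (-0.67, adjusted p = 0.0544). The 4 calls became 2 without hippocampus SC 2, 7 without cortex SC 6 and 8 without cortex HFHS 6. Hmgcs1, Sqle, Insig1 and Srebf2 had log2 values of -0.48 ± 0.22, 0.07 ± 0.18, -0.63 ± 0.26 and 0.14 ± 0.26 (adjusted p = 0.191, 0.879, 0.124 and 0.818). On HFHS, 0 of the 26 genes passed in either direction (background 2.18% lower and 4.24% higher), with a median of -0.16. Without the 3 libraries of shortest transcripts, Fdps alone passed as lower there (-0.70, adjusted p = 0.000546). Fdps, Stard4 and Ggps1 had the smallest p values, with log2 values of -0.69 ± 0.31, -0.59 ± 0.30 and -0.30 ± 0.15 (adjusted p = 0.188, 0.264 and 0.272).

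Of the 4 genes of SREBP2 control (Srebf2, Scap, Insig1, Insig2), 2 were lower in hypothalamus (18.3% of all genes) and 1 in hippocampus (15.3%) on SC, and 1 in each on HFHS (9.21% and 10.8%), so that 1 of 4 is not far from the share of all genes. Insig1 and Insig2 were lower in hypothalamus than in cortex on SC, by 1.32 ± 0.25 and 0.85 ± 0.15 (adjusted p = 0.00011 and 5.02e-05). Srebf2 had 76.2 to 218.9 CPM in hypothalamus (median 157.6), 141.5, 212.1, 116.7, 139 and 117.9 CPM in hippocampus and 134.8 to 292.5 CPM in cortex (median 201.6). All 3 groups overlapped, and the log2 differences from cortex were -0.42 ± 0.25 in hypothalamus (adjusted p = 0.194) and -0.56 ± 0.26 in hippocampus (adjusted p = 0.102). On HFHS the values of Srebf2 were -0.14 ± 0.26 and -0.40 ± 0.24 (adjusted p = 0.75 and 0.234). Without the 3 libraries of shortest transcripts, the hippocampus difference of Srebf2 on SC was -0.64 ± 0.24 (adjusted p = 0.0411). Scap, the escort of SREBP2, had 0.67 ± 0.36 and 0.54 ± 0.37 on SC (adjusted p = 0.145 and 0.281).

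Srebf2 was counted from 7 transcripts, and a transcript with a retained intron, Srebf2-205 (1981 bases), held a large part of its TPM. The coding transcript Srebf2-201 (5077 bases) had a median of 33.8 TPM in hypothalamus on SC (12 to 45), 24.2 in hippocampus (20.7 to 47.6) and 29.5 in cortex (5.76 to 44.5). Srebf2-205 had medians of 28.2 TPM (24.3 to 39), 31.4 TPM (29.2 to 40.9) and 59.8 TPM (19.4 to 71.7). Its share of the TPM of Srebf2 was 36.5% (28 to 61.8) in hypothalamus, 51% (42.4 to 52.5) in hippocampus and 62.7% (48.9 to 73.2) in cortex. On HFHS the medians of the share were 44.5% (32 to 47.4), 56.7% (40.8 to 70) and 58.2% (48.5 to 76.3). The highest shares of hypothalamus on SC (61.8%) and of cortex (73.2% and 76.3%) belonged to hypothalamus SC 6, cortex SC 6 and cortex HFHS 6. These are the 3 libraries of shortest transcripts, and they had the lowest Srebf2-201 TPM of their groups. The shares of Srebf2-205 were not tested, and they rest on how reads were divided among overlapping transcripts. When transcripts other than protein-coding ones were left out for every gene, Srebf2 had log2 differences from cortex on SC of 0.05 ± 0.31 in hypothalamus and -0.27 ± 0.33 in hippocampus (adjusted p = 0.911 and 0.546). The same counts left 21 lower genes in hypothalamus, the same 21 as before, and 17 lower and 1 higher in hippocampus. Across the 26 genes, Srebf2 had the largest median share of TPM outside coding transcripts (54.2%), followed by Ggps1 (28.3%) and Lss (20.6%).

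**Figure D3:**
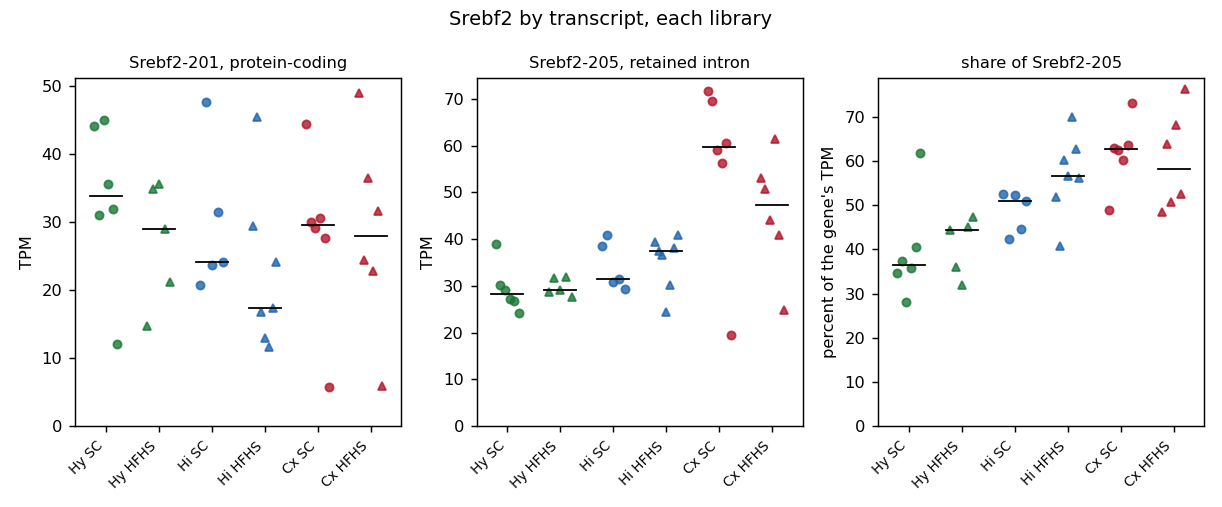
TPM of the coding transcript Srebf2-201 (left) and of the retained-intron transcript Srebf2-205 (middle), and the percent of the gene's TPM in Srebf2-205 (right), in each library, with the median of each group as a line. On SC the share of Srebf2-205 had medians of 36.5%, 51% and 62.7% in hypothalamus, hippocampus and cortex.

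The levels of 6 of the 26 genes, all enzymes, moved with the astrocyte markers within hippocampus, where the score varied most (6.41 to 9.27 over 12 libraries). Only the 26 genes were correlated with the scores. The share of all genes that moved with either score is not known. With the mean of each diet subtracted, 6 genes passed an adjusted p of 0.05 over the 156 correlations computed (26 genes, 2 scores, 3 regions). Hmgcs1 had Pearson's r = 0.92 (permutation p = 4e-05, adjusted 0.00195) and Spearman's rho = 0.94 (p = 0.00012, adjusted 0.00624), and r = 0.86 without hippocampus SC 2 and HFHS 2, the libraries farthest from the median score. Idi1 had r = 0.94 and rho = 0.93 (permutation p = 5e-05 and 8e-05, adjusted 0.00195 and 0.00624), and r = 0.90 without both. Tm7sf2 had r = 0.93 and rho = 0.91 (permutation p = 2e-05 and 0.00011, adjusted 0.00195 and 0.00624), and r = 0.89 without both. Msmo1 had r = 0.88 and rho = 0.89 (permutation p = 0.00051 and 0.00102, adjusted 0.0129 and 0.0318), and r = 0.80 without both. Sqle and Cyp51 passed by r (0.89 and 0.86, permutation p = 0.00058 and 0.00173, adjusted 0.0129 and 0.0337) and not by rho (0.83 and 0.80, p = 0.00336 and 0.00488, adjusted 0.0655 and 0.0846). Without both libraries their r was 0.81 and 0.76.

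Ebp and Lbr moved instead with the oligodendrocyte markers in hippocampus. Ebp had r = 0.95 and rho = 0.92 (permutation p = 3e-05 and 0.00017, adjusted 0.00195 and 0.00663), and r = 0.92 without hippocampus SC 4 and HFHS 7, the libraries farthest from the median of that score. Lbr had r = 0.85 and rho = 0.85 (permutation p = 0.00052 and 0.00152, adjusted 0.0129 and 0.0339), and r = 0.86 without both. In hypothalamus and cortex, 0 of the 26 genes passed by r for either score, and Cyp51 passed by rho for the astrocyte score in cortex (rho = 0.84, permutation p = 0.00146, adjusted 0.0339; r = 0.78, p = 0.00701, adjusted 0.0781, and 0.42 without cortex SC 2 and HFHS 3).

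**Figure D4:**
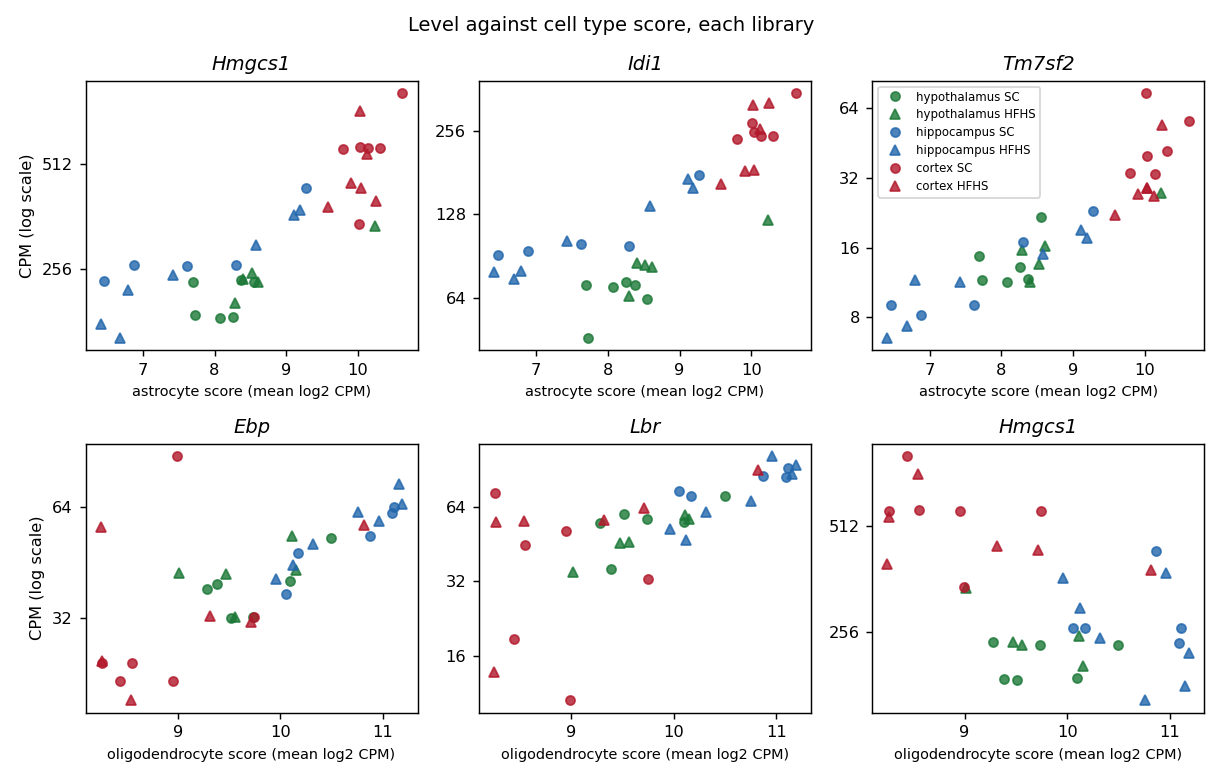
CPM on a log scale against the astrocyte score (top: Hmgcs1, Idi1, Tm7sf2) and the oligodendrocyte score (bottom: Ebp, Lbr, Hmgcs1), one point per library, coloured by region (circles SC, triangles HFHS). Within hippocampus the top genes rise with the astrocyte score (r = 0.92, 0.94 and 0.93) and Ebp and Lbr with the oligodendrocyte score (r = 0.95 and 0.85).

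The comparisons with cortex were therefore also fitted with the astrocyte score as a covariate. In hypothalamus on SC, 18 of the 26 genes were still lower, where 7.09% of all genes were, and the calls of Sqle, Lss and Dhcr7 were lost. Idi1 and Msmo1 had -1.27 ± 0.19 and -1.54 ± 0.29 in that fit (adjusted p = 8.61e-06 and 0.000214). On HFHS, 15 were lower in hypothalamus (background 5.6%). In hippocampus, 0 of the 26 were lower on SC (background 0.793%) and 0 on HFHS (background 0.603%), and the medians were -0.34 and -0.35. Hmgcs1 had -0.18 ± 0.23 on SC in that fit (adjusted p = 0.69) and Msmo1 -0.94 ± 0.33 (adjusted p = 0.0914). On SC the lowest score of a cortex library (9.79) lay above the highest of hypothalamus (8.55) and of hippocampus (9.27), so score and region cannot be told apart between these groups.

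The second question is the response to HFHS within each region. In edgeR, 0 of the 26 genes passed in hypothalamus, hippocampus or cortex, and 0 of all genes passed in each (background 0.0%). At an unadjusted p under 0.05 there were 6, 0 and 1 of the 26 genes, and 1639, 984 and 1652 of the 19272, 19036 and 17844 genes tested. DESeq2 called 1 of the 26, Ggps1 in cortex, and 87, 15 and 504 of all genes, and voom called 0 of the 26 and 2, 0 and 519 of all genes. The medians of the log2 fold change were 0.27, -0.05 and -0.09, and those of all genes -0.01, 0.00 and -0.02. The fitted value was above 0 in 22, 12 and 10 of the 26 genes, and the share of all genes above 0 was not computed. Library HFHS 2 of hypothalamus was the highest of its group for 19 of the 26 genes. Its astrocyte score was 10.23, the others of the group lay between 8.29 and 8.62, and without it the median was 0.09. With the astrocyte score as a covariate it was 0.02.

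In hypothalamus, Mylip, Ggps1 and Idi1 had the smallest p values. Mylip had 6.03 to 11.1 CPM on SC (median 9.4) and 11.5 to 16.7 CPM on HFHS, which did not overlap. Its log2 fold change was 0.64 ± 0.21 (adjusted p = 0.48). In TPM these groups overlapped (2.86 to 6.14 on SC and 5.26 to 8.2 on HFHS). Ggps1 had 31.1 to 46.2 CPM on SC and 46.4, 53.9, 42.4, 42.3 and 57.0 CPM on HFHS, with 0.40 ± 0.14 (adjusted p = 0.482). Idi1 had 0.42 ± 0.18 (adjusted p = 0.552). Hmgcs1, Sqle, Srebf2 and Insig1 had 0.26 ± 0.16, 0.12 ± 0.14, -0.03 ± 0.25 and 0.65 ± 0.29 (adjusted p = 0.712, 0.876, 0.988 and 0.569). Insig1 had 48.7, 72.3, 103.5, 43.4 and 53.1 CPM on HFHS and 22.0 to 66.7 CPM on SC, and was thus high in library HFHS 3.

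In hippocampus, Mylip, Scap and Pmvk came first, with 0.51 ± 0.26, -0.59 ± 0.35 and 0.18 ± 0.13 (adjusted p = 0.876, 0.876 and 0.877). Hmgcs1, Sqle, Srebf2 and Insig1 had -0.17 ± 0.23, -0.13 ± 0.19, -0.15 ± 0.25 and -0.22 ± 0.22 there. In cortex, Ggps1 had 57.2 to 69.1 CPM on SC (median 61.7) and 72.5 to 90.7 CPM on HFHS (median 85.3). The groups did not overlap in CPM, and the log2 fold change was 0.41 ± 0.15 (adjusted p = 0.366). In TPM they overlapped (17.4 to 39.6 on SC and 33.4 to 61.1 on HFHS). DESeq2 gave Ggps1 0.41 ± 0.11 (adjusted p = 0.0186). Tm7sf2 had -0.56 ± 0.27 (adjusted p = 0.545) and Mvd -0.53 ± 0.28 (adjusted p = 0.627) in cortex. Hmgcs1, Sqle, Srebf2 and Insig1 had -0.21 ± 0.24, 0.06 ± 0.20, -0.27 ± 0.23 and 0.07 ± 0.22.

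**Figure D5:**
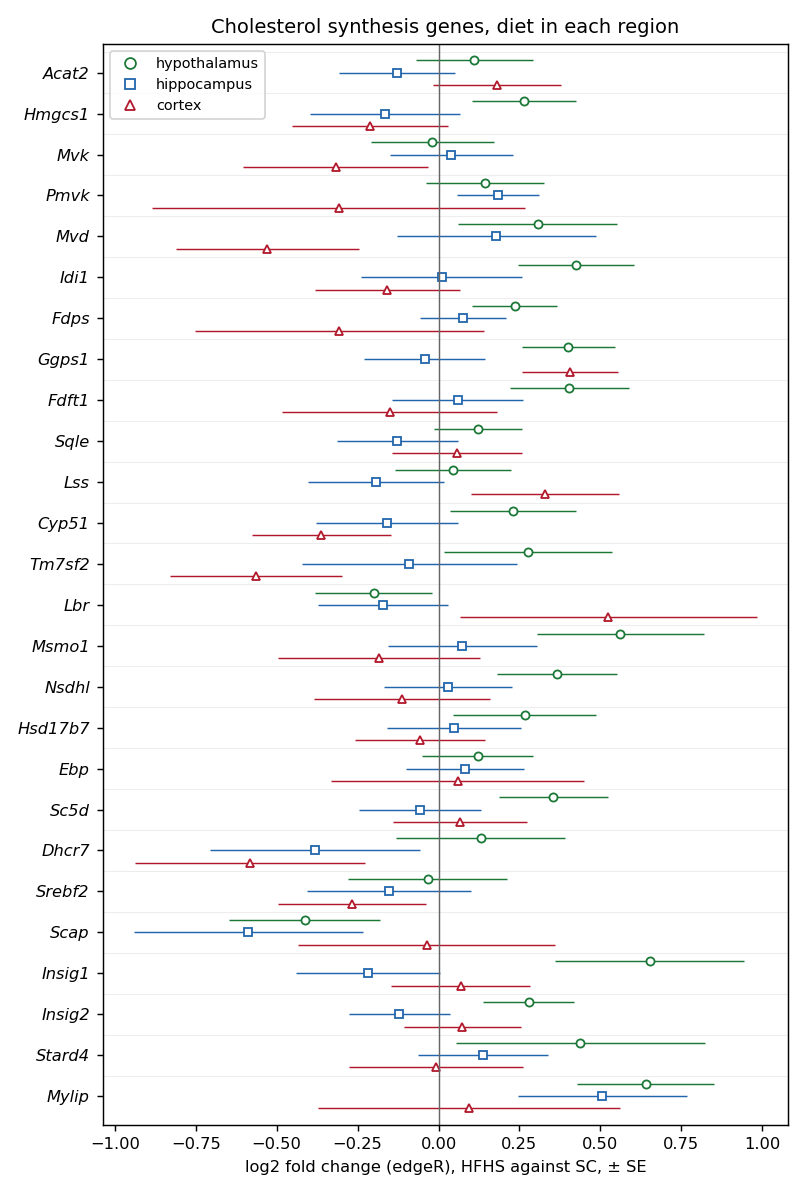
Log2 fold change with SE of each of the 26 genes, HFHS against SC, in hypothalamus (green circles), hippocampus (blue squares) and cortex (red triangles). All symbols are open because 0 of the 26 genes passed. In hypothalamus, 22 values lie above 0 (median 0.27), and the share of all genes above 0 was not computed. Library HFHS 2 was the highest of its group for 19 of the 26 genes, and with the astrocyte score as a covariate the median was 0.02.

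The diet effect did not differ detectably between regions. In the interaction contrasts, 0 of the 26 genes passed for hypothalamus against cortex, hippocampus against cortex or hypothalamus against hippocampus (background 0.0% in each). At an unadjusted p under 0.05 there were 3, 0 and 1 of the 26 genes. These counts were not set against the share of all genes at that threshold and are not read as a result. DESeq2 and voom called 0 of the 26 genes. The medians were 0.49, 0.18 and 0.26 (0.06, 0.08 and -0.02 for all genes). The smallest p values for hypothalamus against cortex belonged to Cyp51 (0.64 ± 0.30), Mvd (0.88 ± 0.42) and Tm7sf2 (0.89 ± 0.43), with adjusted p values of 0.408, 0.41 and 0.417. For hippocampus against cortex they belonged to Ggps1, Mvd and Lss (-0.40 ± 0.21, 0.77 ± 0.42 and -0.46 ± 0.29, adjusted p = 0.559, 0.559 and 0.616). For hypothalamus against hippocampus they belonged to Insig1, Ggps1 and Insig2 (0.87 ± 0.36, 0.44 ± 0.22 and 0.39 ± 0.22, each with an adjusted p of 1.0).

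A list of 31 other sterol genes was tested in the same fits. In hypothalamus against cortex on SC, 12 were lower and 2 higher, and in hippocampus 5 were lower and 7 higher, where 18.3% and 15.3% of all genes were lower and 17.7% and 15.4% higher. Of 10 genes of SREBP processing, 3 were lower in hypothalamus, among them Tmem97, a sterol-binding membrane protein (-1.19 ± 0.27, adjusted p = 0.000728). In hippocampus 1 of them was lower and 1 was higher. The higher one was Mbtps1, a protease that cuts SREBPs (1.10 ± 0.36, adjusted p = 0.0178). Of 7 genes that use isoprenoids, 4 were lower in hypothalamus, among them Nus1 and Pdss2 of dolichol and ubiquinone synthesis (-0.83 ± 0.17 and -0.69 ± 0.19, adjusted p = 0.000226 and 0.00442), and Dhdds was the only one to pass in hippocampus (0.47 ± 0.15, higher, adjusted p = 0.0178). Of 14 genes of sterol turnover and export, 5 were lower and 2 higher in hypothalamus, and 4 were lower and 5 higher in hippocampus. Hsd3b7, a bile acid enzyme, and Cyp46a1, which hydroxylates brain cholesterol for export, were lower in hypothalamus (-1.12 ± 0.16 and -2.15 ± 0.30, adjusted p = 8.64e-07 and 1.08e-06). In hippocampus, Cyp46a1 was lower (-2.07 ± 0.32, adjusted p = 2.14e-05), with neuron markers also lower there than in cortex (3.59 ± 0.27 and 4.96 ± 0.42), and Cyp27a1, another sterol hydroxylase, was higher (1.41 ± 0.29, adjusted p = 0.000532).

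On HFHS, 5 of the 31 were lower and 1 was higher in hypothalamus against cortex (9.21% and 14.6% of all genes), and 6 were lower and 4 higher in hippocampus (10.8% and 13.4%). Soat1, which esterifies cholesterol, was lower in hippocampus on both diets (-1.15 ± 0.28 on SC and -1.68 ± 0.26 on HFHS, adjusted p = 0.00272 and 1.44e-05). Between hypothalamus and hippocampus, 5 of the 31 were lower in hypothalamus on SC (4.13% of all genes) and 1 on HFHS (2.18% of all genes). The gene on HFHS was Stard3 (-0.96 ± 0.26, adjusted p = 0.0203), and 1 of 31 is not far from the share of all genes. For diet, 0 of the 31 passed in any region in edgeR.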

How the data were processed

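RNA of ACSA2-sorted cells was measured in 35 libraries. The authors deposited, per the submitters' processing notes, estimated counts and TPM values per transcript from Salmon on build GRCm38, with FastQC also named. For either tool, the version is "not given in the sources used here". Among 140948 transcripts, 139852 matched GENCODE release 21 without the version number, and the 1096 others (0.214% to 0.535% of a library's reads) were left out. Estimated counts were summed per gene and rounded, and deposited TPM values were summed for levels between genes. Reads shared by paralogs, overlapping genes or antisense genes remain uncertain.

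Genes were tested with edgeR 4.0.16 (R 4.3.3): filterByExpr, TMM, robust quasi-likelihood, Benjamini-Hochberg adjustment over all genes, threshold 0.05. Diet was fitted on each region alone. Regions and interactions came from 1 model of 6 groups and 21574 genes. CPM values are scaled by TMM over all libraries. SE is the size of the log2 fold change divided by the root of F. Replicates are pools, so errors measure the spread between pools. Score correlations used 100000 permutations within diet, two-sided, on log2 CPM. Alternatives were DESeq2 1.42.0, voom (limma 3.58.1), other scalings, no filter, covariates, a replicate block and leaving out libraries. An alternative on protein-coding transcripts was added after the data were seen. The procedure was tested on simulated data.

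The 26 genes and the other lists were chosen with earlier results of these data known. In each comparison, the text names Hmgcs1, Sqle, Srebf2 and Insig1, the genes that passed with the 4 highest and the 4 lowest fold changes, and, if fewer than 3 passed, those that rank in the first 3 by p. Up to 2 other sterol genes per group with the lowest p are named. Other genes whose values are given in addition were chosen after the values were seen.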

Additional observations from a re-analysis of the deposited data

Results flagged for a closer look

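For each of the 26 genes and 6 groups, the CPM of the highest or lowest library was compared with the nearest other library of its group, and 28 of 156 groups (17.95%) held a library that stood apart by Dixon's criterion. Chance flags about 1 in 20 groups, and the genes share their libraries, so the flags are not independent.

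Cortex SC 6 and cortex HFHS 6, which had the shortest mean transcript lengths, account for 9 of the flags. Pmvk had 368.6 CPM in cortex SC 6 and 270.1 CPM in cortex HFHS 6, where the nearest other libraries had 87.67 and 68.11 CPM. Fdps had 613.7 and 480.5 CPM in the same libraries, against 207.9 and 149.8 CPM. Ebp had 87.92 CPM in cortex SC 6 (nearest 32.18). In cortex HFHS 6, Fdft1 had 677.7 CPM (304.6), Tm7sf2 54.1 CPM (29.08), Msmo1 1356 CPM (644.7) and Nsdhl 116.5 CPM (60.55). In TPM, cortex HFHS 6 lay within the range of its group for these genes (147.8, 30.4, 509.3 and 36.6 TPM). Pmvk and Fdps in both libraries were also the highest of their groups in TPM. So was Ebp in cortex SC 6, by little (25.4 TPM, nearest 24.2). Hypothalamus SC 6, the third of the short libraries, had 45.3 CPM of Pmvk (32.85).

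Hippocampus SC 2, the library with the highest astrocyte score of its group, stood apart for 7 genes. It had 435.1 CPM of Hmgcs1 (nearest 263), 27.62 CPM of Mvk (18.55), 176.7 CPM of Idi1 (99.89), 86.78 CPM of Lss (52.83), 349.6 CPM of Msmo1 (201.9), 212.1 CPM of Srebf2 (141.5) and 116.7 CPM of Scap (93.23). Hippocampus HFHS 2 had 74.14 CPM of Lss (51.64) and 90.22 CPM of Insig1 (58.9). Hypothalamus HFHS 2 had 170.5 CPM of Fdft1 (107.5) and 409.9 CPM of Msmo1 (219.6). The part of cell composition in these values was not tested.

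The other flags were single genes. Mvd had 53.46 CPM in hippocampus HFHS 7 (30.27), and Idi1 had 349.2 CPM in cortex SC 2 (273.1) and a low 45.91 CPM in hypothalamus SC 3 (63.07). Ggps1 and Sc5d had 46.24 and 121.5 CPM in hypothalamus SC 1 (36.57 and 99.12). In hypothalamus SC 2, Tm7sf2 had 21.68 CPM (14.73) and Insig2 a low 39.04 CPM (48.48).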

How the results depend on the processing

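Counts below are of the 26 genes called, and no value changed direction past its threshold. For hippocampus against cortex on SC (18 called), the oligodendrocyte score as a covariate gave 4 and the astrocyte score 0. For the same regions on HFHS (19 called), they gave 8 and 0. For hypothalamus against hippocampus on SC (4 called), DESeq2 gave 7, voom 11, the oligodendrocyte score 7, the astrocyte score 8 and the fit without the 3 libraries of shortest transcripts 9. On HFHS (0 called), voom gave 1, the astrocyte score 2 and the fit without those 3 libraries 1. DESeq2 gave 1 for diet in cortex. Leaving out 1 library at a time gave 21 to 22 and 17 to 21 for hypothalamus against cortex on SC and HFHS, 17 to 20 and 17 to 21 for hippocampus against cortex, 2 to 8 and 0 for hypothalamus against hippocampus, and 0 for diet and for interactions. With the replicate block, counts on SC were 23, 20 and 10 and on HFHS 21, 20 and 2, in the same order, and 0 for diet and interactions. Same-numbered libraries did not deviate together in every pair (the lowest correlation per comparison was -0.161 to 0.095), although many did: 5 of 6 pairs were above 0.1 for diet in cortex (median 0.41, highest 0.773) and for hypothalamus against cortex on SC (0.171, 0.389), and 4 of 5 for diet in hippocampus (0.39, 0.71). Between 1 and 3 pairs per region comparison and 2 to 5 per diet comparison correlated best with their own number (5 of 6 for diet in cortex). The rule took numbers to pair samples only where every pair was above 0.1, so the main fits were unpaired. Deviations shared by number were thus left in the main fits, and only the block takes them up. The 3 libraries of shortest transcripts all carry the number 6. Of 36 named calls, 36 were kept under DESeq2, RLE scaling, the block and coding transcripts (an alternative chosen after seeing the data), 34 under voom and length-scaled counts, 33 with no filter, 26 with the oligodendrocyte score and 15 with the astrocyte score. The count of all genes called for diet in cortex depended on the tool: 0 in edgeR, 504 with DESeq2, 519 with voom and 412 with the block. Depth did not limit detection of any of the 26 genes, all of which passed the filter on low counts.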
